A study of Mus musculus with 4 samples.

Results

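The Notch receptors, ligands and targets described here are 10 genes of the Notch pathway on an Illumina mouse bead array: the receptors Notch1, Notch2 and Notch3, the ligands Dll1, Dll4 and Jag1, the receptor-modifying enzyme gene Mfng, and the target genes Hes1, Hey1 and Nrarp. They were chosen by gene symbol in the platform annotation, which gave 11 probes out of 46632 on the array, 2 of them for Dll4 and 1 for each of the other genes. RNA came from isolated pancreatic islets of 12-week-old mice with a Pdx1-controlled knockout of Bmpr1a, which encodes a receptor of bone morphogenetic proteins, on 2 arrays (knockout 1 and 2), and of wild type mice of the same age on 2 arrays (wild type 1 and 2), both on a C57BL/6 background. The comparison asks which transcripts differ between knockout and wild type islets. Pdx1 is active in the early pancreas and later in beta cells. A deletion that follows this pattern would not directly target vessels, connective tissue and immune cells in the islet preparation. Which cells lost Bmpr1a in these mice was not measured here. No Cre allele is named in the labels for either genotype, and whether an array holds 1 mouse or a pool is not given. What the p-values measure is thus the spread among these 4 samples, in part pooled over all tested probes, and that spread may be technical.

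Notch signalling passes between touching cells. A Delta or Jagged ligand on one cell binds a Notch receptor on its neighbour, the gamma-secretase complex then cuts the receptor, and the freed intracellular part joins the DNA-binding protein Rbpj to switch on repressor genes such as Hes1 and Hey1. Fringe enzymes, of which Mfng is one, add sugars to the receptor and change which ligands it answers to. In the fetal pancreas the pathway is known for holding progenitors back from the endocrine fate through Hes1 and its target Neurog3, and in adult tissues it is best known in vessels, mural cells and lymphocytes.

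Median raw intensity over all 46632 probes, most of them undetected, was 76.8 to 81.5 per array, and 14785 to 16171 probes were detected. Brighter probes could differ in raw scale. Over 32 tested genes of the wider Notch pathway, described below, raw intensities summed to 35821 to 36984 on the knockout arrays. They summed to 29415 to 32576 on the wild type arrays, though their median change after normalization was 0.05. A probe was called detected where its deposited detection p, which sets it against negative control beads, was below 0.05. The knocked-out gene itself did not separate the genotypes. Its detected probe had raw intensities of 887 and 687 on knockout arrays 1 and 2 and of 793 and 851 on wild type arrays 1 and 2 (adjusted p = 0.204 in limma), and where that probe lies relative to the deleted part of Bmpr1a is not known here. All 8 beta cell markers on the list passed the detection filter, as did all 5 markers of delta, PP and epsilon cells. By the brightest probe, 3 of 8 beta cell genes were called higher in knockout islets, and 2 of 4 tested alpha cell genes and 2 of 8 tested acinar genes lower. Beside them, 14.1% of all tested probes were called higher and 11.4% lower. Among lymphocyte markers, 9 of 9 tested B cell and plasma cell genes and 5 of 6 tested T cell and NK cell genes were lower in knockout islets past the test. Of these, 8 B cell and plasma cell genes and all 5 T cell and NK cell genes met the filter through the wild type arrays alone. A filter met that way favours such a call. In RNA from whole islets, fewer cells of a type and less RNA per cell cannot be told apart.

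Some of these probes were at background. Of the 11 probes, 6 were detected on all 4 arrays, 1 on 3 arrays, 1 on 1 array and 3 on none. Probes detected on both knockout arrays or on both wild type arrays entered the test. That kept 7 Notch probes of 7 genes and left Notch2, Dll1 and Dll4 untested. A dim probe that passes through 1 genotype alone is favoured to differ, and here that holds for Jag1, which was detected on both knockout arrays and on wild type 2. Changes below are knockout minus wild type on a log2 scale after background correction and quantile normalization, and a change was called at an adjusted p below 0.05 in limma, adjusted over all 15639 tested probes.

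**Figure D1:**
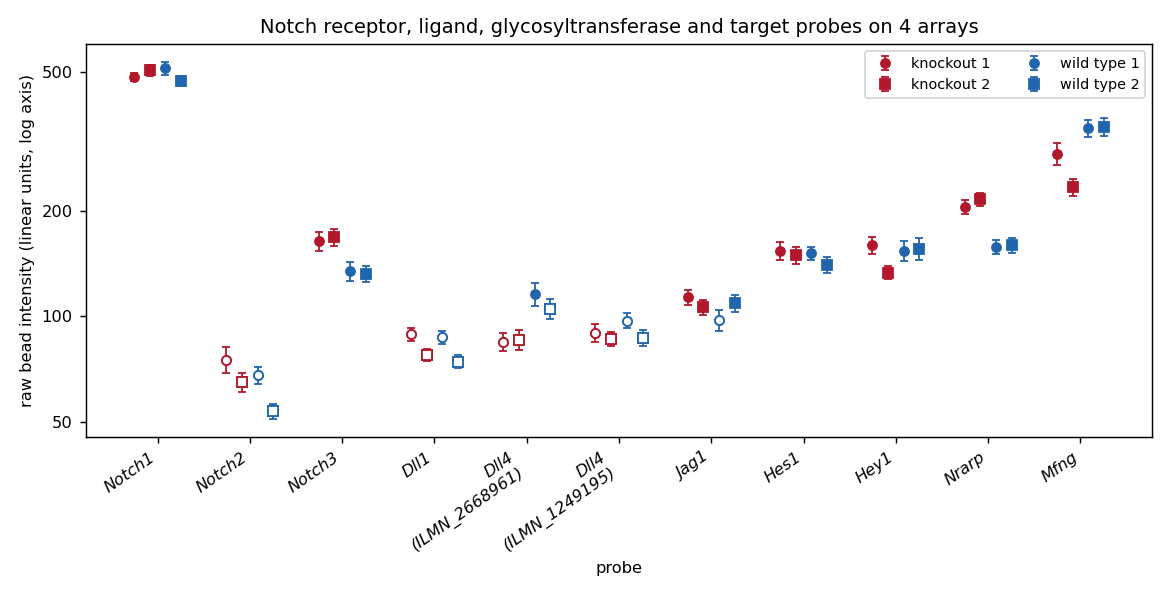
Raw bead intensity (log axis) of each of the 11 Notch probes on knockout arrays 1 and 2 (red) and wild type arrays 1 and 2 (blue), with bars of 1 standard error over the beads of that array; filled symbols mark a detection p below 0.05 and open symbols a higher one. The 2 knockout arrays lie above both wild type arrays for Notch3 and Nrarp and below both for Mfng, and all 4 arrays are undetected for Notch2, Dll1 and one Dll4 probe.

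Nrarp and Notch3 rose in knockout islets and Mfng fell, while Notch1, Jag1, Hes1 and Hey1 did not pass the test. Among all tested probes, 14.1% were called higher, 11.4% lower and 25.5% in either direction, against 2 higher and 1 lower of the 7 Notch probes. With 7 probes such counts are too small to set the Notch genes apart from the rest of the array. The median change of the 7 probes was 0.13, beside 0.05 over all tested probes. In raw intensity the genotypes did not overlap for 3 of the 7 probes, the same 3 that were called, beside 68.2% of all tested probes.

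Notch1, the receptor of progenitors, vessels and T cell precursors, was detected on every array. Its raw intensity was 484 and 506 on knockout arrays 1 and 2, and 513 and 471 on wild type arrays 1 and 2. The genotypes overlapped, and each knockout value lay between the wild type values. On the normalized log2 scale Notch1 was 8.69 ± 0.12 in knockout and 8.85 ± 0.18 in wild type islets (SD, n = 2), a change of -0.15 with a 95% interval of -0.51 to 0.20 (adjusted p = 0.472 in limma). With median scaling in place of quantile normalization the change was 0.11, where the median change of all tested probes was 0.21. Leaving out 1 array gave changes of -0.28 to -0.03.

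Notch3, the receptor of pericytes and vascular smooth muscle, was higher in knockout islets. Raw intensities were 164 and 168 on knockout arrays 1 and 2, with bead standard errors of 10.5 and 9.26, against 135 and 132 on wild type arrays 1 and 2, with 8.57 and 7.14. Both knockout arrays were above both wild type arrays, and the arrays of a genotype lay closer together than their bead errors. The normalized log2 level was 6.77 ± 0.05 in knockout and 6.22 ± 0.01 in wild type islets (SD, n = 2), a change of 0.54 ± 0.12 (SE, adjusted p = 0.0228 in limma), or 1.46-fold. As a ratio of mean raw intensities, which still hold the background, knockout islets had 124% of the wild type value. The change was smaller, 0.33, though still called, with no background correction and with the authors' processed values. The call was lost without knockout 2 (0.51, adjusted p = 0.0515), without wild type 1 (0.55, adjusted p = 0.119) and without wild type 2 (0.54, adjusted p = 0.131).

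Pericyte and smooth muscle markers were measured beside Notch3. Of 6 tested genes on that list, 0 were called with the brightest probe of each gene, and their median change was 0.14. Summed raw intensity over these 6 genes, not normalized between arrays, was 1724 to 1818 on the knockout arrays and 1452 to 1470 on the wild type arrays. Pdgfrb and Cspg4, which encode surface proteins of pericytes, changed by 0.54 and 0.07 (adjusted p = 0.0779 and 0.762), and of the 2 tested probes of the pericyte gene Rgs5 the brighter changed by 0.34 (adjusted p = 0.0897) and the other rose by 0.75 (adjusted p = 0.0112). Tagln, Myh11, Des and Abcc9, also on that list, were not tested, because they were not detected on both arrays of either genotype. What part these cells have in the Notch3 difference was not tested.

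Notch2, a receptor needed by marginal zone B cells, stayed at background on all 4 arrays. Its single probe read 75.3 and 64.8 on knockout arrays 1 and 2, and 67.9 and 53.5 on wild type arrays 1 and 2, with detection p-values of 0.286 to 0.881. No change can be given for it. A dim reading of 1 probe does not show that the transcript is absent.

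Of the 4 ligand probes, that of Jag1 alone was tested. Dll1, a ligand expressed in endocrine progenitors, read 89.0 and 77.6 on knockout arrays 1 and 2 and 87.3 and 74.2 on wild type arrays 1 and 2, and none of these was above background. Dll4, the ligand of sprouting vessels, had a probe (ILMN_2668961) at 84.7 and 85.8 on the knockout arrays, not well above background, and at 115.8 and 105.1 on wild type arrays 1 and 2. Of these 4 readings wild type 1 alone passed the detection threshold, so the probe was not tested and no fold is given. Without the filter on dim probes this Dll4 probe was called lower (-0.51, adjusted p = 0.0435), against knockout readings that were both undetected. The other Dll4 probe (ILMN_1249195) was not detected on any array, at 89.6 and 86.3 on the knockout arrays and 97.3 and 86.9 on the wild type arrays, where the genotypes overlapped.

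Jag1, a ligand of ducts, vessels and mural cells, was near the detection limit. It read 113.4 and 106.2 on knockout arrays 1 and 2, and 97.6 and 109.0 on wild type arrays 1 and 2, where wild type 1 was not detected. The genotypes overlapped. The change was 0.22 with a 95% interval of -0.18 to 0.61 (adjusted p = 0.363 in limma), and leaving out 1 array gave 0.05 to 0.38.

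Mfng, the manic fringe glycosyltransferase, was lower in knockout islets. It read 292 and 234 on knockout arrays 1 and 2, against 345 and 348 on wild type arrays 1 and 2. Both knockout arrays were below both wild type arrays, and the knockout arrays differed between themselves by 0.35 on the normalized log2 scale, more than the wild type arrays did at 0.06. The normalized level was 7.63 ± 0.25 in knockout and 8.24 ± 0.04 in wild type islets (SD, n = 2), a change of -0.61 ± 0.16 (SE, adjusted p = 0.0352 in limma), or 1.52-fold lower. The call was lost without knockout 2 (-0.43, adjusted p = 0.0800), without wild type 1 (-0.58, adjusted p = 0.163), without wild type 2 (-0.64, adjusted p = 0.141), with median scaling (-0.41, adjusted p = 0.137) and when dim probes were kept (adjusted p = 0.0828). Relative to the median of all tested probes, the Mfng change with median scaling was -0.63. With no background correction the Mfng change was -0.49, and with the authors' processed values -0.45, both still called.

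Markers of B cells and plasma cells, in which Mfng is known to be expressed, were lower on the same arrays. All 9 tested genes of the 13 on that list were called lower, with a median change of -3.63, but 8 of the 9 met the detection filter through the wild type arrays alone, which favours such a call. Their summed raw intensity was 665 to 889 on the knockout arrays against 8938 to 9292 on the wild type arrays. Cd79a, a signalling chain of the B cell receptor, was still detected on both knockout arrays, at 107.8 and 109.3, against 368 and 558 on the wild type arrays. Its partner Cd79b read 96.8 and 140.6 on the knockout arrays and 1341 and 1858 on the wild type arrays with its brighter probe. The B cell surface gene Ms4a1 fell by 0.58 (adjusted p = 0.0210), and Pax5, Cd22 and Cr2 were too dim to be tested. All 5 T cell and NK cell genes called lower likewise entered the test through the wild type arrays alone. T cell and NK cell markers had a summed raw intensity of 464 to 600 on the knockout arrays and 1568 to 1773 on the wild type arrays. The part of lymphocytes in the Mfng difference was not tested.

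**Figure D2:**
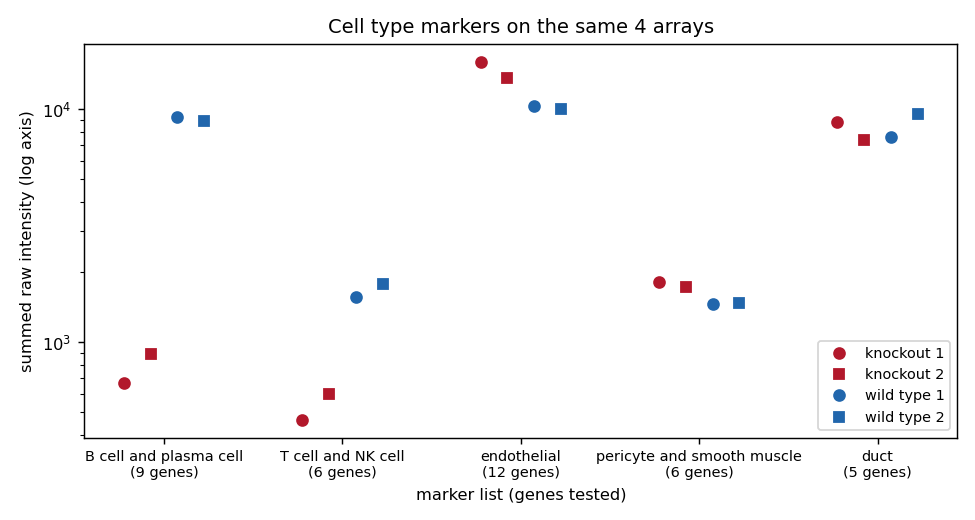
Summed raw intensity (log axis) of the brightest tested probe of each marker gene on knockout arrays 1 and 2 (red) and wild type arrays 1 and 2 (blue), for 5 marker lists. The sums are not normalized between arrays. The B cell and plasma cell sums are 665 and 889 on the knockout arrays and 9292 and 8938 on the wild type arrays, while the endothelial sums are higher on the knockout arrays, at 13642 to 15964 against 9973 to 10310.

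Among the target genes, Nrarp was higher in knockout islets. Nrarp encodes a small ankyrin-repeat protein that is switched on by Notch and binds the Notch intracellular domain to dampen the signal. Raw intensities were 206 and 216 on knockout arrays 1 and 2, with bead standard errors of 9.22 and 9.23, against 158 and 160 on wild type arrays 1 and 2, with 7.25 and 8.17. Both knockout arrays stood above both wild type arrays. The normalized log2 level was 7.25 ± 0.09 in knockout and 6.65 ± 0.01 in wild type islets (SD, n = 2), a change of 0.60 ± 0.13 (SE, adjusted p = 0.0191 in limma), or 1.51-fold. As a ratio of mean raw intensities, knockout islets had 133% of the wild type value. With no background correction the change was 0.41, and with the authors' processed values 0.39, both still called. The call was lost without wild type 1 (0.59, adjusted p = 0.110) and without wild type 2 (0.60, adjusted p = 0.110), and it held without either knockout array (0.53 and 0.66).

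Hes1, the repressor that mediates much of Notch signalling in the pancreas, showed no call in either direction. It read 154 and 150 on knockout arrays 1 and 2, and 151 and 140 on wild type arrays 1 and 2. The genotypes overlapped, and the change was 0.13 with a 95% interval of -0.19 to 0.45 (adjusted p = 0.505 in limma), and leaving out 1 array gave 0.03 to 0.23.

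Hey1, a related repressor of vessels and heart, was lowest on knockout 2. It read 160 and 133 on knockout arrays 1 and 2, and 154 and 156 on wild type arrays 1 and 2. Knockout 1 was above both wild type arrays and knockout 2 below both, a gap of 0.40 between the knockout arrays on the normalized log2 scale, beside 0.03 between the wild type arrays. The change was -0.12 with a 95% interval of -0.52 to 0.28 (adjusted p = 0.623 in limma), and it was 0.08 without knockout 2 (adjusted p = 0.710). The 3 target probes thus differed in what they showed: Nrarp was called and Hes1 and Hey1 were not, and the difference between the targets was not tested.

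**Figure D3:**
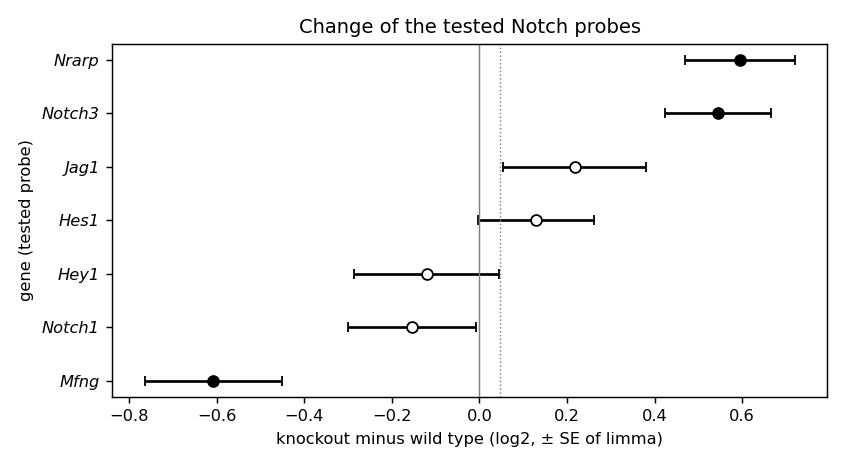
Change of each tested Notch probe, knockout minus wild type on the normalized log2 scale, with bars of 1 standard error from limma (n = 2 arrays per genotype); filled symbols passed an adjusted p below 0.05, the solid line marks 0 and the dotted line the median change of all tested probes, 0.05. Nrarp at 0.60 and Notch3 at 0.54 lie to the right, Mfng at -0.61 to the left, and the other 4 probes between -0.15 and 0.22.

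Nrarp, Dll4, Hey1 and Notch1 are also genes of endothelial cells, whose markers were measured on the same arrays. Of 12 tested endothelial genes, 1 was called higher, the Vegf receptor gene Flt1 (0.70, adjusted p = 0.0386), and none was called lower with its brightest probe. Their median change was 0.32, and the summed raw intensity was 13642 to 15964 on the knockout arrays and 9973 to 10310 on the wild type arrays. Such sums are not normalized between arrays, and those of the wider Notch pathway genes were also higher on the knockout arrays. Among the vessel junction genes, Pecam1 changed by 0.42 (adjusted p = 0.0594) and Cdh5 by 0.30 (adjusted p = 0.165), and the Vegf receptor gene Kdr by -0.11 (adjusted p = 0.632), while Cldn5, Erg, Sox17 and Tie1 were not tested because they were too dim. The part of vessels in the Nrarp difference was not tested. Of 5 tested duct genes, Cftr was called higher and Sox9 and Tff2 lower with their brightest probes. The Cftr probe was undetected on both wild type arrays and entered the test through the knockout arrays alone, whereas a second Cftr probe changed by -0.22 without a call. The duct keratins Krt7 and Krt18 changed by -0.04 and 0.45 (adjusted p = 0.867 and 0.0869), and Krt19 was not detected. Summed raw intensity of the duct genes was 7347 to 8779 on the knockout arrays and 7558 to 9492 on the wild type arrays, where the genotypes overlapped.

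The promoters of the 2 members called higher are shown, a choice made from the calls. Each is given as the 250 bases before its start in a RefSeq promoter table (GRCm38.p6), 5′ to 3′ on the gene's strand. Starts are as that promoter table has them. The gene annotation starts Notch3 at base 32166896, so the last few bases of its sequence lie inside the gene. A promoter was found in the RefSeq table for 7 of the 10 genes, and not for Hes1, Hey1 and Mfng. Each was searched on both strands for the Rbpj core GTGGGAA, for the E-box CACGTG, which binds basic helix-loop-helix factors, and for GGCGCC, a GC-rich element bound by bone morphogenetic protein Smads. Capitals mark a match. The Nrarp sequence lies at chr2:25180508-25180757 on the plus strand and the Notch3 sequence at chr17:32166891-32167140 on the minus strand.
Nrarp: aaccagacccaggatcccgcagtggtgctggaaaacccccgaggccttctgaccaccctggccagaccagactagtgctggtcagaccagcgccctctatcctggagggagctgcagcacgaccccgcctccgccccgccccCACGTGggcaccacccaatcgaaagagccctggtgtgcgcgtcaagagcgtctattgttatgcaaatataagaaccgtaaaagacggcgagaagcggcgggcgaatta
Notch3: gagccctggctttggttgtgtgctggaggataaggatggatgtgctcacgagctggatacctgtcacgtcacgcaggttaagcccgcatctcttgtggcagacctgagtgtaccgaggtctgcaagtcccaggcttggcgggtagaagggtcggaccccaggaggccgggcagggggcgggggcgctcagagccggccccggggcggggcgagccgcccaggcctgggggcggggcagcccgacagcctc

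Nrarp held 1 E-box, 103 to 108 bases before its start, and neither of the other motifs. Notch3 held none of the 3. Over all 32851 promoters of that table, with the same 250 bases, 6.02% held the E-box, 5.42% the Rbpj core and 9.59% the GC-rich element. No member promoter held the Rbpj core in this window, and 1 of the 2 annotated Dll1 promoters held the GC-rich element. A match of letters is a description and not a binding site, and a missing match speaks only of these bases.

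The rest of the Notch pathway was taken from a list of 63 further genes, of which 54 had a probe. Of their 99 probes 42 were tested, and 9 were called higher and 4 lower, beside 14.1% and 11.4% of all tested probes. Of the 9 called higher, 3 met the detection filter through the knockout arrays alone, where they are high, and a detection threshold of 0.01 left 5. Counted by the brightest probe of each of the 32 tested genes, 5 rose (Aph1b, Itch, Mib1, Tle1 and Tle2) and 2 fell (Dtx1 and Hdac1). The median change was 0.05 over these brightest probes and 0.11 over the 42 tested pathway probes, beside 0.05 over all tested probes. Notch4, the fourth receptor and one of endothelial cells, read 828 and 567 on knockout arrays 1 and 2 and 575 and 514 on wild type arrays 1 and 2, which overlap, and changed by 0.19 (adjusted p = 0.509), or by -0.05 without knockout 1.

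Dtx1, a ubiquitin ligase of the Deltex family that binds Notch, had the largest change among these genes. It read 159.3 and 158.8 on knockout arrays 1 and 2, against 263 and 341 on wild type arrays 1 and 2, so both knockout arrays were lower than both wild type arrays. The change was -1.29 ± 0.17 (SE, adjusted p = 0.00377), or 2.45-fold lower, and it was called under every alternative tried, with adjusted p-values of 0.00232 to 0.0241. Dtx1 is also known in lymphocytes, whose markers fell on the same arrays as given beside Mfng, and their part in it was not tested. Hdac1, a histone deacetylase of corepressor complexes, fell by 0.55 ± 0.15 (adjusted p = 0.0403), a call lost without knockout 1, wild type 1 or wild type 2 (adjusted p = 0.108 to 0.195), with median scaling (-0.29) and with no filter (adjusted p = 0.0824).

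Among the cleavage enzymes, Aph1b, a subunit of gamma-secretase, rose by 0.80 ± 0.15 (adjusted p = 0.0125), with 685 and 532 on the knockout arrays and 333 and 349 on the wild type arrays. Of its relative Aph1a, the dimmer of 2 tested probes rose by 0.88 (adjusted p = 0.0149) and the brighter changed by 0.34 and did not pass. With their brightest probes, the 6 tested cleavage enzymes other than Aph1b changed by -0.23 to 0.34, none past the test. The gamma-secretase subunit gene Ncstn, at 0.33 (adjusted p = 0.0969), passed with no background correction, median scaling, the authors' values and an intensity trend (adjusted p = 0.0225 to 0.0498), and the sheddase gene Adam17 with median scaling (0.54, adjusted p = 0.0330). Without the filter on dim probes, another Adam17 probe, detected on 1 wild type array only, was called lower (-0.71, adjusted p = 0.0123). Its knockout readings were both undetected, so the size of that change is not reliable. Without wild type 1 or wild type 2 the Aph1b rise no longer passed (adjusted p = 0.0783 and 0.0780), and the Aph1a probe no longer passed without wild type 1 (adjusted p = 0.0969) or when dim probes were kept (adjusted p = 0.0537).

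On the list of endocytosis and turnover genes, 2 of 8 tested rose, 1 fell and 5 did not pass with their brightest probes. Itch, a ligase that marks Notch for turnover, read 344 and 317 on the knockout arrays and 216 and 207 on the wild type arrays, and rose by 0.74 ± 0.13 (adjusted p = 0.0102), while another Itch probe changed by 0.16 (adjusted p = 0.370). Mib1, which ubiquitinates ligands so that they can signal, rose by 0.71 ± 0.17 (adjusted p = 0.0263). The Itch call was absent without wild type 2 (adjusted p = 0.0815), and the Mib1 call without knockout 1, wild type 1 or wild type 2 (adjusted p = 0.0586 to 0.137) and with no filter (adjusted p = 0.0749). The dimmer tested probe of the ligase gene Fbxw7 fell by 0.50 (adjusted p = 0.0455), where the brighter one changed by 0.02. That call was kept in 5 of the 13 alternatives and was lost with the replicate block (adjusted p = 0.0565).

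Tle1 and Tle2 encode Groucho corepressors, the partners through which Hes proteins repress genes. The brightest Tle1 probe read 640 and 573 on knockout arrays 1 and 2 and 353 and 378 on wild type arrays 1 and 2, and rose by 0.68 ± 0.12 (adjusted p = 0.0118). A second Tle1 probe, undetected on the wild type arrays, was at least 1.76-fold higher in knockout islets, and the third changed by 0.39 (adjusted p = 0.0686). The brighter tested Tle2 probe rose by 0.61 (adjusted p = 0.0163), and the dimmer, detected on 1 of the wild type arrays, changed by 0.54 (adjusted p = 0.0389). The second Tle1 probe and the dimmer Tle2 probe entered the test through the knockout arrays alone, which favours a call, so they add no support to those of the brighter probes. Without wild type 1 or wild type 2, the brightest Tle1 probe (adjusted p = 0.0832 and 0.0755) and both Tle2 probes (adjusted p = 0.0780 to 0.212) lost their calls, and the call of the dimmer Tle2 probe was also lost without either knockout array and in 5 other alternatives (adjusted p = 0.0552 to 0.0864). The probes of Rbpj, the DNA-binding factor of the pathway, were not detected on any array. Snw1 and Kat2a, cofactors of the Notch complex, were not called with their brightest probes (-0.14 and -0.16, or 0.16 and 0.02 with median scaling), while a dimmer Snw1 probe fell by 0.94 (adjusted p = 0.00561). That dimmer Snw1 probe was called under every alternative that kept all 4 arrays, and the brighter one under none of them. Leaving out 1 array gave changes of -1.02 to -0.85 for the dimmer Snw1 probe and -0.21 to -0.07 for the brighter. A dimmer Kat2a probe, undetected on the wild type arrays, was at least 1.39-fold higher in knockout islets. It too was tested through the knockout arrays alone, was not tested at a detection threshold of 0.01, and did not pass without knockout 1, wild type 1 or wild type 2 (adjusted p = 0.0544 to 0.136).

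**Figure D4:**
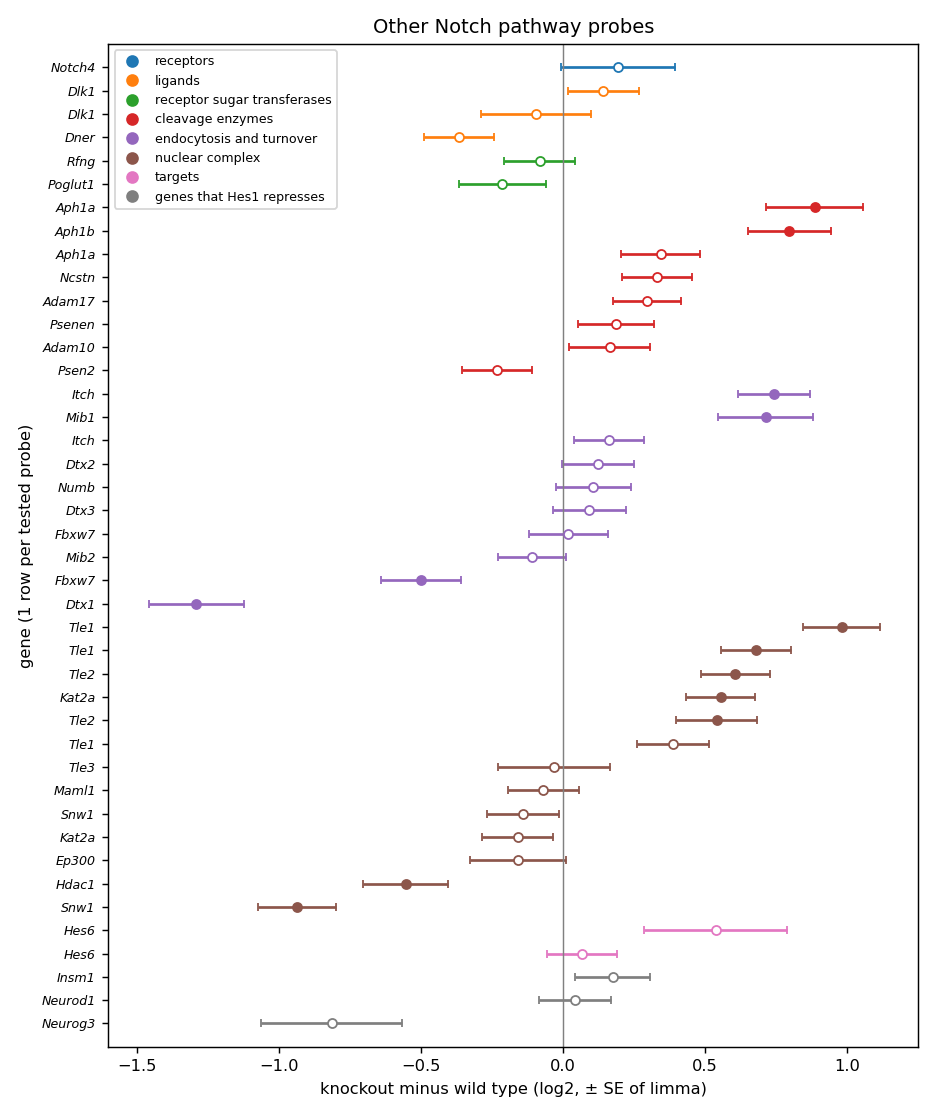
Change of the 42 tested probes of other Notch pathway genes, knockout minus wild type on the normalized log2 scale, with bars of 1 standard error from limma (n = 2 arrays per genotype), coloured by role; filled symbols passed an adjusted p below 0.05. Dtx1 at -1.29 lies farthest from 0, and probes of the same gene (Aph1a, Itch, Fbxw7, Snw1, Kat2a) appear as separate rows that differ.

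The genes that Hes1 is known to repress were not called. Neurog3, the factor that starts endocrine differentiation, read 193 and 282 on knockout arrays 1 and 2 against 356 and 339 on wild type arrays 1 and 2, with both knockout arrays below both wild type arrays. Its change was -0.81 ± 0.25 and missed the threshold (adjusted p = 0.0579), and it passed with the authors' processed values (-0.59, adjusted p = 0.0353), with no background correction, an offset of 50, an intensity trend and the replicate block (adjusted p = 0.0370 to 0.0457), and without knockout 2 (-1.19, adjusted p = 0.00583). Without knockout 1 the Neurog3 change was -0.44 (adjusted p = 0.102), and it did not pass without wild type 1 or wild type 2 (adjusted p = 0.225 and 0.161) or with dim probes kept (adjusted p = 0.189). Nor did Neurog3 pass with median scaling, cyclic loess or a detection threshold of 0.01 (adjusted p = 0.0534, 0.0586 and 0.0553). Neurod1 and Insm1, later endocrine factors, changed by 0.04 and 0.17. Of the other Hes and Hey genes only Hes6 was tested, at 0.07 with its brighter probe, and Hes5, Hes7, Hey2 and Heyl were not. Among ligand-like genes, Dlk1 changed by -0.10 with its brighter probe and Dner by -0.37 (adjusted p = 0.742 and 0.0760), and of the sugar transferases Rfng changed by -0.08 and Poglut1 by -0.21, none past the test. With median scaling Dlk1, Rfng and Poglut1 turned sign, to 0.18, 0.21 and 0.08, and Dner changed by -0.07. Dner passed with the authors' values, no background correction, an offset of 50 and an intensity trend (adjusted p = 0.0294 to 0.0463).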

How the data were processed

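RNA from 4 islet samples was hybridised to Illumina mouse bead arrays. Per the file headers, the deposited scanner table holds each probe's mean bead intensity, its standard error, how many beads were read and the detection p-value. The authors' processed log2 values were deposited for 46614 probes. Their wild type 1 column equals the log2 raw intensity to within 5.0e-09, and how the others were made is not known here.

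The intensity was corrected for background in limma 3.58.1 (R 4.3.3) by normexp, fitted from detection p-values, adding an offset of 16 that shrinks changes of dim probes. Quantile normalization on the log2 scale followed. The 15639 probes that met the detection threshold of 0.05 were fitted with lmFit and eBayes (6.24 degrees of freedom) without a pairing term, and Benjamini-Hochberg adjustment ran over them all. The fit was tested on simulated data. The number of arrays limits the precision. Alternatives changed the background correction, normalization, filter, variance model, pairing and arrays included.

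Members and lists were chosen with earlier results of these data known. Every member probe is described. Pathway genes are named where a probe was called, or as the 3 brightest tested of a list without a call. Marker genes are named as the first 3 on a list with a probe. Any further gene, such as Flt1, Cftr, Sox9, Tff2 Ncstn, Adam17 and the untested or undetected ones, was named after its values were seen. A gene's brightest tested probe stands for it. Gene names come from the platform annotation, which names 1 gene for 29965 probes, several for 10 and none for 16657. Normalized values correlated across probes at 0.987 between the knockout arrays, 0.991 between the wild type arrays and 0.924 to 0.938 between genotypes.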

Additional observations from a re-analysis of the deposited data

How the results depend on the processing

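Under median scaling the median change over all tested probes was 0.21, against 0.05 as reported. There 0 Notch probes were called lower, the Notch1 change was 0.11, 2 other pathway probes were called lower, and 3517 of all tested probes were called higher and 1391 lower (71.7% higher, against 55.2% as reported and 49.3% with cyclic loess). A detection threshold of 0.01 left 5 other pathway probes called higher and did not test Jag1. Leaving out 1 array gave 0 to 2 Notch probes higher and 0 to 1 lower, 2 to 8 other pathway probes higher and 2 to 4 lower, and 677 to 2041 of all probes higher and 787 to 1790 lower. A genotype left with 1 array is assumed to vary like the other. Hey1 ranged from -0.32 to 0.0799. The 16 called Notch and pathway probes kept their sign wherever tested, and 4 stayed called without wild type 1 and 4 without wild type 2. With no filter the 1 Notch probe called lower was Dll4 in place of Mfng.

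Both genotypes have replicates 1 and 2, which are numbers only: the deviations of same-numbered arrays correlated at 0.02 across probes, and the design gives no pairing. With the replicate block 2 Notch probes were called higher and 1 lower, as without it, and 15 of the 16 called probes stayed called. Signal over background limits what can be said of Notch2, Dll1, Dll4 and Rbpj.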
